A study of Mus musculus with 3 samples.

Results

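Hormone receptors and the transcription factors of the milk-producing epithelium were examined in mammary tumours from 3 arrays, all taken from mice with the WAP-SVT/t transgene. The 9 genes of the set were the receptor genes Esr1, Pgr and Prlr and the factor genes Stat5a, Stat5b, Elf5, Gata3, Foxa1 and Elf3, taken by gene name. Of these, 8 had at least 1 probe set whose annotation named them alone, among 12393 genes with such a probe set. Prlr was not analysed here. The 8 genes were read by 11 probe sets of 22626, with a pair each for Stat5a, Stat5b and Elf5. Each probe set is given apart, by its ID on the array.

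All 3 tumours came from female NMRI mice that produce the SV40 T/t antigens, proteins of a DNA tumour virus, in the epithelium of the mammary gland and, by the labels, selectively there. The Wap promoter named in the transgene belongs to a milk protein gene and is active in alveolar epithelium of the pregnant and lactating gland. Age, pregnancy history and cell content of the tumours are not known from the labels. The series' design text speaks of 6 such tumours, of line 8, set against 24 human breast tumours. The 3 arrays used here come from mouse tumours, 1 array each, with no normal gland and no second group, so no test between groups exists and none was run. Tumours 1 and 2 share the first number of their titles and tumour 3 has another, with no statement whether that number marks an animal. An SD over the tumours may therefore include 2 tumours of the same mouse, and a difference between tumours may be technical.

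Oestrogen and progesterone receptors are ligand-activated transcription factors that sense ovarian hormones in a subset of luminal cells, the inner layer of the mammary ducts. FOXA1 opens chromatin for the oestrogen receptor, and GATA3 is needed to form and keep luminal cells. Prolactin acts through its receptor and the kinase JAK2 to activate STAT5A and STAT5B, which together with the ETS factor ELF5 direct alveolar cells to make milk. ELF3 is another epithelial ETS factor.

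The deposited intensity of every member probe set in each tumour is given first, and levels after it are log2(intensity + 50) following quantile normalization. Fold differences are on that scale, which understates them for dim probe sets. A probe set passed the low-signal floor when its mean level reached 7.40, the median of all probe sets, or an intensity of about 119. The median intensity of the arrays was 111, 120 and 114 in tumours 1, 2 and 3. With 1 array per tumour, the number of arrays limits the precision of every value.

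Both steroid receptors were dim, with signals near or within those of probe sets for bacterial genes. The 27 control probe sets for Bacillus genes, which have no target in mouse RNA, reached at most 18 in tumours 1 and 2 and 12 in tumour 3. The labels do not say whether their transcripts were added to the samples. Esr1, the oestrogen receptor alpha gene (1421244_at), had intensities of 1, 9 and 16. Pgr, the progesterone receptor gene (1421444_at), had intensities of 7, 2 and 8. All Pgr values and those of Esr1 in tumours 1 and 2 lay within the range of the Bacillus controls of the same array, and the Esr1 value in tumour 3 lay 4 units above it. The levels were 5.86 ± 0.18 for Esr1 and 5.80 ± 0.09 for Pgr (SD, n = 3), and no order of the tumours is read from them. Each rests on a single probe set, and a transcript outside the stretch it reads would not be seen.

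Some other nuclear receptor genes passed the floor in the same tumours, but more did not. Of 20 such genes on the array, 8 passed it and 12 did not, where 6952 of all 12393 genes passed (1 probe set per gene). The same share of all genes stands beside the counts past the floor in the lists below. Of the 8, 3 had their highest and lowest tumours at least 2-fold apart, where 24.8% of all genes past the floor did. Thra, a thyroid hormone receptor gene, had intensities of 176, 521 and 142 and was highest in tumour 2. Vdr, the vitamin D receptor gene, had 611, 952 and 343, a 2.48-fold range. Rxra, a common partner of these receptors, was lowest in tumour 3, at 296, 286 and 118. In all 3 the lowest tumour was tumour 3. Rarg, a retinoic acid receptor gene, differed least at 9.42, 9.25 and 9.28. The glucocorticoid receptor gene Nr3c1, which also acts in lactation, measured 9.44, 9.76 and 9.25, and Esr2, the second oestrogen receptor gene, had intensities of 4, 2 and 3. The count of 3 was 1 without tumour 2, 1 without tumour 3 and 1 with the mean of all probe sets of a gene.

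Cofactors that bind steroid receptors were mostly measured. Of 10 genes on the array, 9 passed the floor and 2 differed at least 2-fold, where 24.8% of all genes past the floor did. Nrip1, a corepressor gene, had intensities of 630, 1003 and 324, and the coactivator gene Ncoa3 had 307, 326 and 96. Both were lowest in tumour 3. Med1, a Mediator subunit that contacts nuclear receptors, differed least, at 8.74, 8.81 and 8.94. The count of 2 was 1 without tumour 2 and 0 without tumour 3.

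Of 11 genes on the array listed as targets of the oestrogen or progesterone receptor, 4 passed the floor. Of these, 2 differed at least 2-fold, where 24.8% of all genes past the floor did. Among the 7 below the floor were the oestrogen target gene Greb1 (intensities of 13, 69 and 3) and the progesterone-induced ligand gene Tnfsf11 (8, 18 and 28). The progesterone-induced ligand gene Wnt4 was also below the floor on average, but had an intensity of 264 in tumour 3 against 3 and 21 in tumours 1 and 2. These 3 genes were named after their values were seen. Past the floor, the cyclin D1 gene Ccnd1 had 356, 1634 and 742, and Ctsd, which encodes the protease cathepsin D, had 3802, 4686 and 1893. Xbp1, a factor of secretory cells, differed least at 13.00, 13.00 and 12.31. The remaining gene past the floor, Prom1, had intensities of 1659, 3087 and 2093 and was also named after its values were seen. The count of 2 was 1 without tumour 2 and 1 without tumour 3.

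Foxa1 was dim and Gata3 was measured alike in all tumours. Foxa1 (1418496_at) had intensities of 11, 39 and 75, rising from tumour 1 to tumour 3. It lay within the range of the Bacillus controls in tumour 1 and above that range in tumours 2 and 3, and below the floor in every tumour. Its levels were 5.94, 6.45 and 6.96, a 2.02-fold range that sits at the edge of the 2-fold threshold, and a difference of 1.71 (log2) with an offset of 16 shows how far a dim value depends on the offset. Gata3 (1448886_at) had intensities of 718, 657 and 717 and levels of 9.63, 9.41 and 9.59, or 9.54 ± 0.11 (SD, n = 3). Its range of 0.21 was wider than that of only 7.10% of probe sets past the floor. Tumours 1 and 3 differed by 0.04, and relative to the mean of the epithelial genes Krt8, Krt18 and Epcam tumour 3 was higher by 0.002, so their order is not settled. GATA3 also works in T cells. None of the 7 T cell markers on the array passed the floor, and their summed intensity was 147, 147 and 64, with none at 0.

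**Figure D1:**
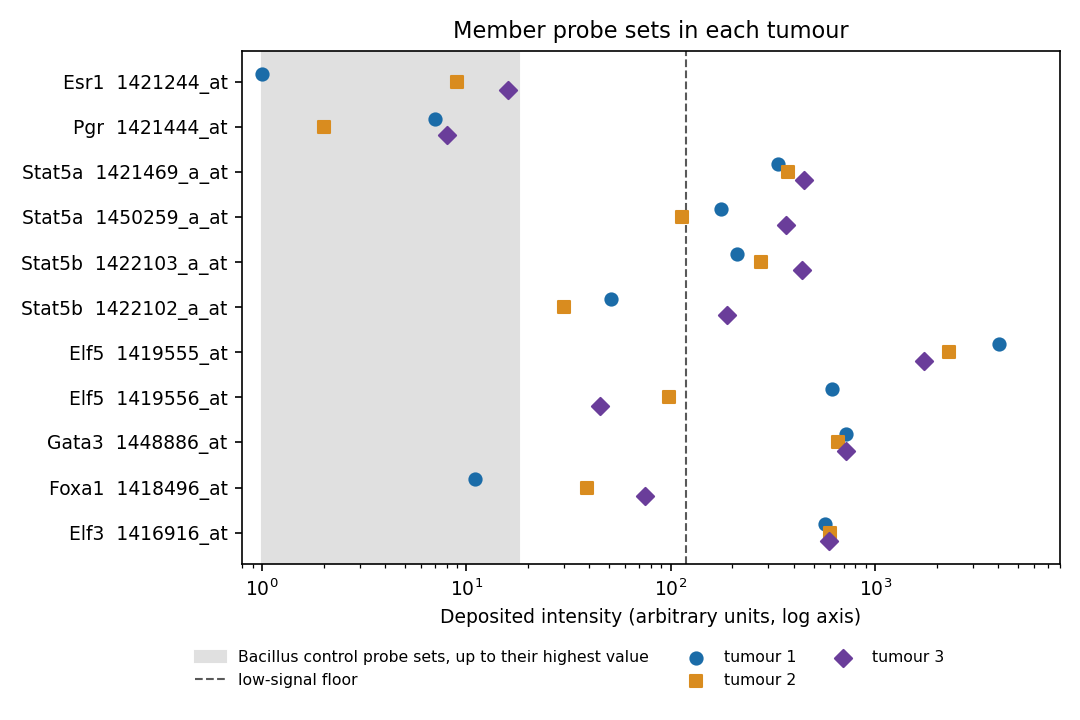
Deposited intensity (arbitrary units, log axis) of the 11 member probe sets in tumours 1, 2 and 3, with the low-signal floor near 119 as a dashed line and the range up to the highest Bacillus control (18) shaded. Esr1 and Pgr lie in the shaded range, Gata3 and Elf3 have nearly overlapping points, and Elf5 falls from tumour 1 to tumour 3 while all Stat5a and Stat5b probe sets are highest in tumour 3.

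Of 38 other lineage factors on the array, not all of them factors of mammary epithelium, 22 passed the floor. Of these, 7 differed at least 2-fold, where 24.8% of all genes past the floor did. Of the 7, 3 were highest in tumour 2, 3 in tumour 3 and 1 in tumour 1. Foxo3, a forkhead factor under insulin control, had intensities of 797, 1503 and 351. Cebpd, of the C/EBP family that acts in gland regression, had 795, 1355 and 384. Sox9, a factor of luminal progenitor cells, had 154, 128 and 393, and Id2, an inhibitor of helix-loop-helix factors needed for alveolar growth, had 856, 976 and 2275. The first pair was highest in tumour 2 and the second in tumour 3. Tfap2a, an AP-2 factor gene, differed least at 8.95, 9.08 and 9.07. The other forkhead genes of the FOXA group, Foxa2 (3, 1 and 16) and Foxa3 (15, 155 and 59), were below the floor on average, and Foxa3 passed it in tumour 2. Without tumour 3 the count of 7 was 1.

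Elf5 differed most widely among the members by the dimmer of its probe sets, and both fell in the order of tumours 1, 2 and 3. Probe set 1419555_at had intensities of 4016, 2292 and 1726, and 1419556_at had 616, 98 and 45. The levels were 12.02, 11.23 and 10.74 for the first and 9.41, 7.18 and 6.55 for the second. Tumour 1 was thus 1.72-fold above tumour 2 by the first and 4.72-fold by the second. Against tumour 3 it was 2.44-fold and 7.27-fold higher. The mean and SD were 11.33 ± 0.65 and 7.71 ± 1.51 (n = 3). Of all probe sets past the floor, 85.2% had a narrower range than the first and 99.0% a narrower range than the second. The second passed the floor through tumour 1 only. The range of the first, 1.28, was narrower than that of Stat5a 1450259_a_at (1.41) and Stat5b 1422102_a_at (1.61).

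The pair of Elf5 probe sets did not scale together. The intensity of 1419555_at was 6.52 times that of 1419556_at in tumour 1, 23.4 times in tumour 2 and 38.4 times in tumour 3. In tumours 2 and 3 the intensity of 1419556_at, 98 and 45, was below the floor. A small error there changes a ratio without offset strongly. Since the level of 1 probe set cannot be set against that of another, these ratios are read only between tumours: they differ by more than the fall of the first probe set does. What the pair of probe sets reads along the transcript was not analysed here, and isoform use was not tested.

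Elf3 was the most even member. Its probe set 1416916_at had intensities of 566, 598 and 593 and levels of 9.30, 9.29 and 9.34, or 9.31 ± 0.03 (SD, n = 3). Of the probe sets past the floor, 0.504% had a narrower range. With values as deposited the highest tumour was tumour 2, so no order is read. Elf5 (by 1419556_at) and Elf3, both epithelial ETS factors, thus had the widest and the narrowest range of the 11 probe sets.

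Among 17 other ETS factors on the array, 12 passed the floor and 2 differed at least 2-fold, where 24.8% of all genes past the floor did. Ehf, an epithelial ETS factor gene, had intensities of 803, 416 and 1121. In the RefSeq gene order of assembly GRCm38.p6 Ehf is the coding gene next to Elf5 on chromosome 2, and its order of tumours was not that of Elf5: it was lowest in tumour 2 and highest in tumour 3. On the other side of Elf5, the catalase gene Cat had 713, 943 and 815. Ets1, common in endothelium and lymphocytes, had 239, 679 and 571, and Etv4 differed least at 9.06, 9.13 and 8.89. The count of 2 was 1 whichever tumour was left out, and 1 with the mean of all probe sets of a gene.

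Stat5a and Stat5b were highest in tumour 3 by all 4 of their probe sets. For Stat5a, 1421469_a_at had intensities of 334, 376 and 446 and 1450259_a_at had 176, 113 and 367. For Stat5b, 1422103_a_at had 212, 276 and 440 and 1422102_a_at had 51, 30 and 188. The last was below the floor on average and above it in tumour 3. Levels of Stat5a were 8.62, 8.68 and 8.97 by the first probe set and 7.85, 7.31 and 8.72 by the second. Those of Stat5b were 8.06, 8.29 and 8.95, and 6.71, 6.31 and 7.92.

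The size of the difference varied with the probe set. Tumour 3 was 1.28-fold above tumour 1 and 1.22-fold above tumour 2 by the brighter Stat5a probe set, and 1.83-fold and 2.66-fold by the dimmer. For Stat5b these values were 1.85-fold and 1.58-fold by the brighter probe set and 2.31-fold and 3.06-fold by the dimmer. Means and SDs were 8.76 ± 0.19 and 7.96 ± 0.71 for Stat5a and 8.43 ± 0.46 and 6.98 ± 0.84 for Stat5b (n = 3). Tumours 1 and 2 had no settled order: the brighter probe set of each gene was lowest in tumour 1 and the dimmer was lowest in tumour 2. Relative to the mean of the epithelial genes Krt8, Krt18 and Epcam, all 4 were lowest in tumour 2. Tumour 3 stayed highest for all 4 with values as deposited, with array medians subtracted, with offsets of 16 and 100, and relative to Krt8, Krt18 and Epcam.

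Stat5a and Stat5b encode closely related proteins and are neighbours on chromosome 11, with Stat3 next to Stat5a. All 4 IDs carry the letter a before their ending, a mark the array's maker uses for probe sets that match several transcripts of a gene. How much of 1 gene's transcript a probe set of the other takes up was not analysed here, so the 2 genes are not fully separate measurements. Stat3, which acts in regression of the gland after lactation, had intensities of 2602, 3403 and 3546 and differed 1.32-fold. Ghdc, on the other side of Stat5b, was below the floor at 32, 44 and 60.

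The promoters of this gene pair are shown because both genes were highest in the same tumour, and a link between sequence and tumour order was not tested. Of the RefSeq start sites of each gene in GRCm38.p6, the windows of 250 bases before the start that share the longest stretch are given 5′ to 3′, with that stretch of 16 bases in capitals. The next longest stretch shared by any other pair of windows of these genes had 11 bases.
Stat5a, chr11:100860234-100860483, plus strand: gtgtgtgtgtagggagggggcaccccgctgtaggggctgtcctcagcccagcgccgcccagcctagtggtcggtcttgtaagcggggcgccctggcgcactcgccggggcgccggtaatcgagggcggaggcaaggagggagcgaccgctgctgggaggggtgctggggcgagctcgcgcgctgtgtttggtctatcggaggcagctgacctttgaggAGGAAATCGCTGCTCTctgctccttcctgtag
Stat5b, chr11:100822571-100822820, minus strand: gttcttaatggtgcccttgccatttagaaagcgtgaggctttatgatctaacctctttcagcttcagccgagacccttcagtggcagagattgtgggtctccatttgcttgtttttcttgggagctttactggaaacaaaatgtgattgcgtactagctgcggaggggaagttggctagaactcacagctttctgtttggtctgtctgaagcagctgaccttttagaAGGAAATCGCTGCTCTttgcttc
The shared stretch begins 32 bases before the Stat5a start and 23 bases before the Stat5b start. Each printed window lies downstream of the other window of its gene. Those others are chr11:100859406-100859655 for Stat5a and chr11:100850582-100850831 for Stat5b. The printed windows were picked for the longest match, and how often unrelated windows share such a stretch was not computed. Which start these tumours used cannot be read from the array.

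Genes of prolactin and related signalling, with other receptors and other STAT factors among them, differed in several directions. Of 21 on the array, 17 passed the floor and 6 differed at least 2-fold, where 24.8% of all genes past the floor did. Tumours 1, 2 and 3 were each highest for 2 of the 6, but this split rests partly on near ties. The 2 of tumour 1, Ptpn1 (levels of 10.43, 10.42 and 8.90) and Cish (7.99, 7.89 and 6.87), were nearly equal in tumours 1 and 2. Socs2, counted for tumour 3, had levels of 11.28 and 11.31 in tumours 1 and 3. Tumour 3 was lowest for 3 of the 6. The growth hormone receptor gene Ghr, whose product also activates STAT5, had intensities of 386, 1528 and 421. Ptpn1, a phosphatase that acts on JAK2, had 1281, 1316 and 424. Socs3, an inhibitor induced by STAT3, had 358, 604 and 969, and the adaptor gene Shc1 had 406, 493 and 185. Jak2 itself had levels of 8.65, 9.39 and 9.01, and the kinase gene Tyk2 differed least at 7.67, 7.98 and 7.67. Jak2 was named after its values were seen. The count of 6 was 3 without tumour 3 and 3 with the mean of all probe sets of a gene.

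Of the feedback inhibitors known to be induced by STAT5, Cish and Socs2 differed in their order of tumours. Cish, an inhibitor of cytokine receptors, had intensities of 199, 197 and 68, lowest in tumour 3 where all Stat5a and Stat5b probe sets were highest. Socs2, an inhibitor of growth hormone signalling, had 2358, 1146 and 2636, lowest in tumour 2 as were the dimmer Stat5a and Stat5b probe sets. Its levels in tumours 1 and 3 were nearly equal, at 11.28 and 11.31. By those probe sets tumour 3 was 1.83-fold and 2.31-fold above tumour 1. Both were named after their values were seen. STAT5 acts once phosphorylated, and an array measures no phosphorylation.

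Target genes of STAT5 and ELF5 had no common order over the tumours. Of 15 on the array, 11 passed the floor and 8 of these differed at least 2-fold, against 24.8% of all genes past the floor. Tumour 1 was highest for 4 of the 8 and tumour 3 for the other 4, with 0 for tumour 2, but Cish was nearly equal in tumours 1 and 2 and Socs2 in tumours 1 and 3. Of all 11 past the floor, tumour 1 was highest for 5, tumour 2 for 2 (Csn2 and Akt1) and tumour 3 for 4. Csn2 was close in tumours 2 and 3 (levels of 10.84 and 10.73), and Akt1 in tumours 1 and 2 (10.22 and 10.23). The count of 8 was 4 without tumour 1, 5 without tumour 3 and 5 with the mean of all probe sets of a gene. Btn1a1 passed the floor through tumour 1 only, so its difference was built into its selection.

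Those highest in tumour 1 were Btn1a1, Xdh, Folr1 and Cish. Btn1a1, a protein of the milk fat globule membrane, had intensities of 934, 63 and 68. Xdh, which encodes xanthine dehydrogenase of the same membrane, had 1169, 602 and 364. The folate receptor gene Folr1 had 1097, 452 and 103. Xdh and Folr1 fell from tumour 1 through tumour 2 to tumour 3, as Elf5 did, whereas Btn1a1 was nearly equal in tumours 2 and 3. Below the floor on average, the whey genes Lalba (437, 46 and 42) and Wap (88, 19 and 29) and the milk mucin-like gene Glycam1 (561, 2 and 18) were also brightest in tumour 1. The remaining target below the floor, the casein gene Csn1s2b, was brightest in tumour 3 (13, 12 and 25). These 4 were named after their values were seen.

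Those highest in tumour 3 were Csn1s1, Csn1s2a, Id2 and Socs2. Csn1s1, an alpha-casein gene, had intensities of 3106, 1700 and 4340, and Csn1s2a had 256, 328 and 641. Id2 and Socs2 are given above, with tumours 1 and 3 of Socs2 at levels of 11.28 and 11.31. Csn2, the beta-casein gene, had 1158, 1757 and 1719 and differed less than 2-fold. Csn3, the kappa-casein gene, differed least at 13.41, 13.18 and 13.41, with intensities of 11104, 8964 and 10114 close to the array maxima of 11344, 11659 and 10789. Apart from Csn3 the caseins were named after their values were seen.

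**Figure D2:**
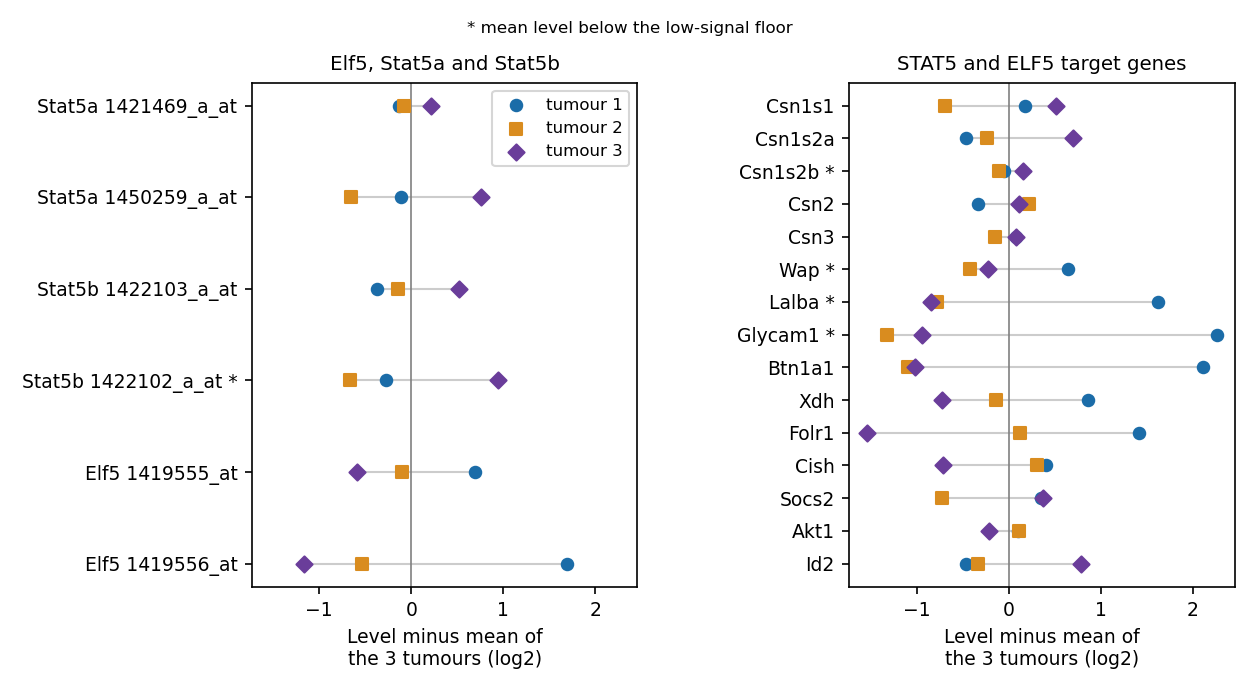
Level of each probe set (left) or gene (right) in each tumour minus the mean of the 3 tumours, on the log2(intensity + 50) scale. Both Elf5 probe sets are highest in tumour 1 and all 4 Stat5a and Stat5b probe sets in tumour 3, and among the 15 target genes Btn1a1, Folr1 and Xdh are highest in tumour 1 while Csn1s1, Csn1s2a and Id2 are highest in tumour 3.

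Promoters of the milk genes were searched for the palindromic STAT letters TTCNNNGAA, which read the same on both strands, to show what the factors are known to bind. In the 250 bases before the start, 3 of 10 windows of 9 target genes held them, and 7.02% of 32851 windows in the RefSeq table (GRCm38.p6) did. The matches are in capitals below, 5′ to 3′.
Csn2, chr5:87699426-87699675, minus strand: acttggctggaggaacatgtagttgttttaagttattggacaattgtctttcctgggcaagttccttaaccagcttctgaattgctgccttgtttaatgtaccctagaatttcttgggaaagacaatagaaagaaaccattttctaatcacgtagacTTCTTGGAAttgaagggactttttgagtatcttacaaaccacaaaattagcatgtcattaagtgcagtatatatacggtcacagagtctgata
Csn1s1, chr5:87665958-87666207, plus strand: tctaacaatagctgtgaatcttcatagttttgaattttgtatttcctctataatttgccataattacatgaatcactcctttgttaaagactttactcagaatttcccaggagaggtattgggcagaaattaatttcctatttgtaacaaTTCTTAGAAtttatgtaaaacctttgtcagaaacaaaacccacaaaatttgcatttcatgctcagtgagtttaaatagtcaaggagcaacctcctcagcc
Glycam1, chr15:103565082-103565331, minus strand: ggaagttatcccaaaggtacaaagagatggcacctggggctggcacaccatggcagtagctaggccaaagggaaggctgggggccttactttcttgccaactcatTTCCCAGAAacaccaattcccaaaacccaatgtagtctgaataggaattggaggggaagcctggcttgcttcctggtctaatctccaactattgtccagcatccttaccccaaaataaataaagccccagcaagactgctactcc
The match began 93, 100 and 145 bases before the start of Csn2, Csn1s1 and Glycam1. The 3 genes with a match were not alike over the tumours: Glycam1 was brightest in tumour 1, Csn1s1 in tumour 3 and Csn2 in tumour 2. Csn2 was nearly equal in tumours 2 and 3 (intensities of 1757 and 1719), however, and Glycam1 was below the floor on average. The ETS letters GGAAGT, on either strand, occurred in the windows of 2 target genes, Glycam1 and Wap, and in 19.7% of all windows.

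The same search in the 15 windows of the 9 member genes found TTCNNNGAA before Esr1 and Prlr only, in 1 window each. GGAAGT occurred in 3 windows, of Prlr, Stat5a and Stat5b. That of Stat5a is not the window printed above, and that of Stat5b is. Neither set of letters was in the windows of Elf5, Gata3, Foxa1, Elf3 or Pgr. The FOX letters TGTTTAC, on either strand, occurred before Foxa1 and Prlr (3.17% of all windows), and ACANNNTGT, the core letters of progesterone receptor sites, before Stat5b (5.84%). The GATA letters AGATAA (9.99%) and the full palindrome of an oestrogen response element (0.0639%) were in none of the 15. All letters were searched on both strands, and no match overlapped another in the windows of members or targets. No order over the tumours is tied to these letters.

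Over all members, 7 of the 11 probe sets passed the floor, which 50% of all probe sets pass by its construction. Highest and lowest tumours were at least 2-fold apart for 5 of the 11, where 17.0% of all probe sets were. Below the floor these were 2 of 4, against 7.09%. Past it they were 3 of 7, against 26.9%, and 1 of those 3 passed the floor only through the tumour in which it was high. The 5 came from 4 genes: both probe sets of Elf5, 1 each of Stat5a and Stat5b, and Foxa1. The count of 5 was 2 without tumour 1, 4 without tumour 2 and 1 without tumour 3, and a range over fewer tumours can only be as wide or narrower apart from renewed normalization. The median range was 0.89 (log2) over the 11 and 0.48 over all probe sets, and 0.89 against 0.68 past the floor.

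**Figure D3:**
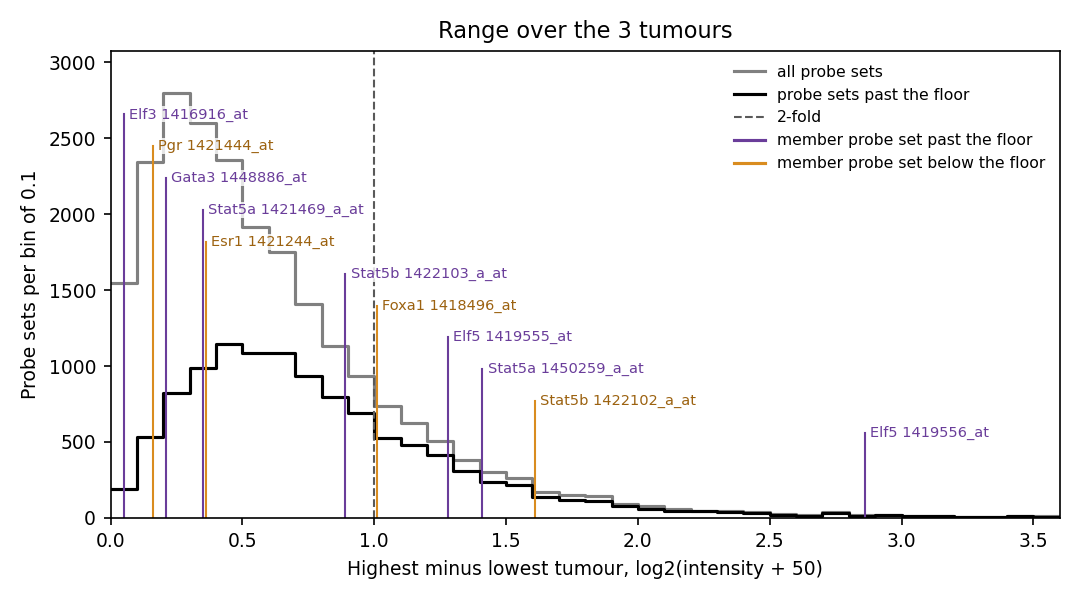
Number of probe sets per 0.1 bin of the range between highest and lowest tumour on the log2(intensity + 50) scale, for all 22626 probe sets (grey) and those past the floor (black), with the 11 member probe sets as vertical lines whose heights serve only to separate labels. The lines run from 0.05 for Elf3 to 2.86 for Elf5, and 5 lie at or beyond the 2-fold mark at 1.

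Only 1 Stat5b probe set, 1422102_a_at, was at least 2-fold higher in tumour 3 than in both others, and only Elf5 1419556_at in tumour 1. Tumour 1 was at least 2-fold above tumour 2 for 1 member probe set (2.44% of all probe sets) and above tumour 3 for 2 (4.54%). Tumour 3 was at least 2-fold above tumour 1 for 2 (4.61%) and above tumour 2 for 2 (5.87%). Tumour 2 was at least 2-fold above tumour 1 for 0 (2.52%) and above tumour 3 for 0 (5.51%). The highest tumour was tumour 3 for 8 of the 11 probe sets (36.8% of all probe sets), tumour 1 for 3 (30.2%) and tumour 2 for 0 (33.0%), but the 8 include the even or dim Elf3, Pgr and Esr1. Past the floor it was tumour 3 for 4 of 7 (36.8%), tumour 1 for 3 (29.6%) and tumour 2 for 0 (33.7%). The 4 include Elf3, highest in tumour 2 with values as deposited. The 3 include Gata3, highest in tumour 3 relative to Krt8, Krt18 and Epcam. The order fell from tumour 1 through 2 to 3 for 2 of the 11 (16.8%), both of Elf5, and rose for 4 (16.8%), namely Esr1, Foxa1 and the brighter probe sets of Stat5a and Stat5b. Relative to Krt8, Krt18 and Epcam, Esr1 and those probe sets of Stat5a and Stat5b were lowest in tumour 2, so their rising order is not settled. Foxa1 was below the floor. Of the 3 genes with a pair of probe sets, all 3 pairs had the same highest tumour, as did 47.9% of genes with 2 probe sets. Only the Elf5 pair also shared its lowest tumour, as did 28.3%.

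Likeness to other genes over the 3 tumours was computed for the 3 member probe sets past the floor and 2-fold. It was the root mean square distance of levels, each centred on its mean, among 6947 genes past the floor. For Elf5 1419555_at the nearest were Slc25a22, Mrtfa and Nlrx1, at distances of 0.002, 0.018 and 0.025, and 385 genes lay within 0.25. For Elf5 1419556_at they were Oas2, Gbp6 and Ifit2, all interferon-induced genes, at 0.038, 0.069 and 0.069, with 13 genes within 0.25. For Stat5a 1450259_a_at they were Noct, Med11 and Adi1, at 0.028, 0.034 and 0.036, with 295 within 0.25. Elf5 1419556_at passed the floor through tumour 1 only, as did Oas2 and Gbp6. A profile high in tumour 1 was thus built into their selection. The limit of 0.25 was the same for narrow and wide ranges, so the counts of genes within it are not compared. With 3 points a profile has few shapes, and nothing about function or control is read from these names.

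**Figure D4:**
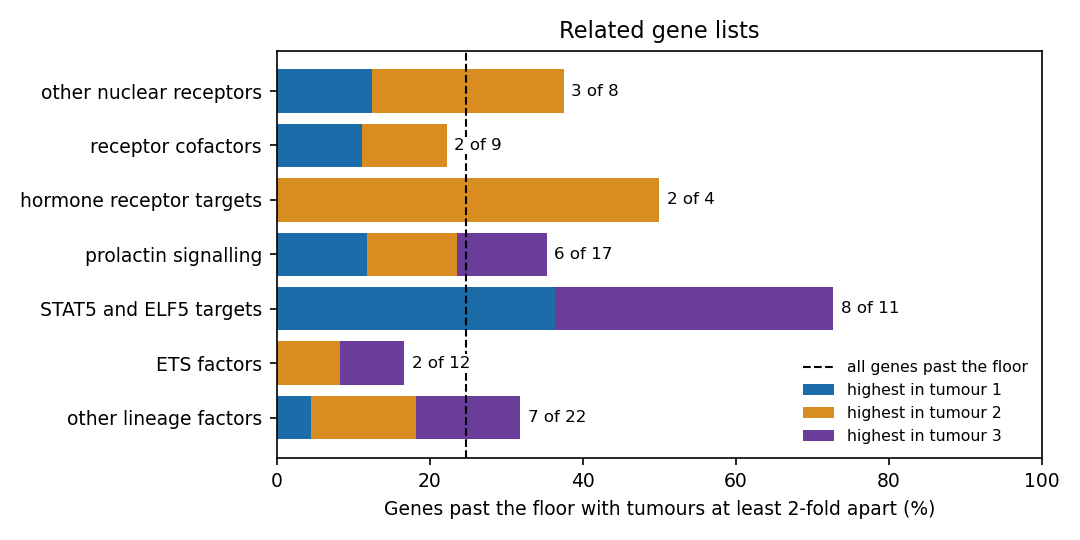
Share of genes past the floor whose highest and lowest tumours were at least 2-fold apart (percent, x axis) in each of the 7 related lists, split by the tumour in which the gene was highest, with the share of all genes past the floor (24.8%) as a dashed line. STAT5 and ELF5 targets lie farthest above the line, at 8 of 11 genes, and ETS factors farthest below it, at 2 of 12. The lists overlap: the target list shares Cish and Socs2 with prolactin signalling and Id2 with other lineage factors.

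The tumours also differed in markers of the cells they hold, and in bulk RNA fewer cells of a type and less RNA per cell cannot be told apart. All 10 luminal markers passed the floor, with summed intensities of 30144, 28376 and 25420. Krt18 differed least at 12.65, 12.76 and 12.50, and the mucin gene Muc1 most, at 10.26, 10.96 and 6.71. Only 2 of 9 basal markers passed, Acta2 and Mylk, with sums of 2533, 2046 and 1536 for the list. The basal keratin genes Krt5, Krt14 and Krt17 were below the floor on average, though Krt14 had an intensity of 358 in tumour 1 against 59 and 50. Relative to the mean level of Krt8, Krt18 and Epcam, which was 12.40, 12.68 and 12.36, Elf5 was at -0.38, -1.45 and -1.63 by 1419555_at and at -2.99, -5.50 and -5.81 by 1419556_at. The fall from tumour 1 to tumour 3 was 1.24 and 2.82 (log2) on this scale, against 1.28 and 2.86 before. This holds for those epithelial genes only. The luminal markers Krt19 (10.71, 9.70 and 8.99) and Cldn4 (10.89, 9.44 and 7.34) fell in the order of Elf5. Of the 10 luminal markers, tumour 1 was highest for 4, tumour 2 for 5 and tumour 3 for 1. Krt19 and Cldn4 were named after their values were seen, and Elf5 relative to them was not computed.

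Adipocyte markers moved with Stat5a and Stat5b, which are also expressed in fat. Their summed intensity was 968, 1073 and 6477 over 7 genes on the array, 3 of which passed the floor, all 3 highest in tumour 3, and none was at 0. Fabp4 had levels of 8.93, 8.41 and 11.41 and Adipoq, which passed the floor through tumour 3 only, 6.90, 7.14 and 9.52. The part of fat tissue in the Stat5a and Stat5b values was not tested. Macrophage markers ran the other way, with sums of 19922, 18797 and 11009 and 9 of 9 genes past the floor and lowest in tumour 3. C1qc differed most of these, at 11.62, 11.10 and 9.82, and Cd14 least, at 11.73, 11.79 and 11.58. Sums were 14060, 15275 and 11066 for 8 fibroblast markers, with Lum the widest (7.97, 9.56 and 8.43) and Dcn the narrowest (9.73, 10.06 and 9.77). They were 821, 1145 and 558 for 7 endothelial markers, 3 of them past the floor, from Cdh5 (7.78, 7.98 and 6.61) to Eng (8.34, 8.34 and 7.92). For 5 B and plasma cell markers, 2 of them past the floor, they were 1621, 2683 and 1656, most of it from Sdc1, which epithelium also expresses (10.55, 11.32 and 10.52), while Jchain had 7.86, 7.79 and 7.61. None of these markers was at 0 in any tumour.

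The arrays also differed in the ratio of control probe sets at the 3′ and 5′ ends of a transcript, which was highest in tumour 3 for 18S RNA and in tumour 1 for the transferrin receptor. These ratios, 3′ over 5′, were 1.04, 1.21 and 1.26 for beta-actin and 0.904, 1.21 and 0.809 for Gapdh. For 18S ribosomal RNA they were 0.5, 0.397 and 12.7, and for the transferrin receptor 7.63, 4.33 and 2.88. Their part in the members' values was not tested. Between tumours 1 and 2 alone, Elf5 1419556_at differed 4.72-fold and no other member probe set differed by 2-fold.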

How the data were processed

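The labels' protocols give RNAzol extraction of total RNA and biotinylated cRNA. Deposited values were intensities, 1 for each probe set on each array, and their whole numbers from 0 up point to a linear scale. Summarisation, background correction, scaling and software are not given in the sources used here. The scaling between arrays therefore stays unknown, and no detection call was used. Of 22690 probe sets, 64 controls were left out. Per a table of the platform's annotation 20380 of the rest named 1 gene, 691 several and 1555 none. From these intensities quantile normalization over 22626 probe sets, log2(intensity + 50), ranges, counts at 2-fold and root mean square distances were computed with Python 3.11.15, numpy 2.4.6 and pandas 2.3.3. Figures were drawn with matplotlib 3.10.9. Counting code was tested on simulated data.

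Members and lists were chosen with earlier results of these data known. All members are named. Of each related list the text names up to 4 genes past the floor and 2-fold with the widest range and the narrowest past the floor, and of each marker list the widest and narrowest. Other names were chosen after their values were seen, as said beside most of them, and so were neighbouring genes, Nr3c1, Esr2, Epcam, Krt8 and the dim basal keratins. For a listed gene the probe set of highest mean level was used. Of 140 related genes listed, 129 were on the array. Alternatives were values as deposited, array medians subtracted, offsets of 16 and 100, other floors, a 1.5-fold threshold, other probe set choices and each tumour left out.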

Additional observations from a re-analysis of the deposited data

How the results depend on the processing

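Of 55 recomputed differences between highest and lowest tumour of member probe sets, over 5 settings of scaling and offset, 48 moved by less than the SD over the tumours and 7 by more. The sign turned for 1 of the 55, Elf3 as deposited, at -0.01 (log2). The setting relative to Krt8, Krt18 and Epcam was added after the data were seen. With the floor at the 75th percentile, 3 member probe sets passed in place of 7. The count of 5 at least 2-fold apart became 3 past the floor and 3 without suffixed probe sets (a letter before the ending of the ID), and the median range of 0.89 became 0.36 without them. These alternatives hold fewer probe sets by construction. Tumour 1 was at least 2-fold above tumour 2 for 2 member probe sets, not 1, relative to Krt8, Krt18 and Epcam. Tumour 3 was at least 2-fold above tumour 1 for 0, not 2, with an offset of 100, which shrinks differences of dim probe sets. With each tumour left out, the count at least 2-fold apart ran from 1 to 4, the median range from 0.23 to 0.87 and member probe sets past the floor from 6 to 7. The pairs with the same highest tumour ran from 1 to 3 and related genes at least 2-fold apart from 11 to 21, against 27 with all tumours. In each of these ranges but that of the floor, the lowest value was without tumour 3. No paired analysis was possible because the tumours form 1 group. Signal over background limits Esr1 and Pgr, which lay at or near the Bacillus controls, and Foxa1, which did so in tumour 1.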
